A study of Rattus norvegicus with 20 samples.

Results

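Bdnf and Vgf, a pair of genes that neurons transcribe more when they are active and whose products they secrete, were followed in the subiculum, the main output region of the hippocampus. Both were chosen by Ensembl identifier, ENSRNOG00000047466 for Bdnf and ENSRNOG00000001416 for Vgf, and they are 2 of the 32883 genes in the deposited count table. The choice was by identifier and not by a rule on their measured values, but it was made with earlier results of these data known. The gene names could not be checked, because the count table carries identifiers only and the RefSeq gene table used here holds no Ensembl identifiers.

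The libraries came from wild-type Wistar rats aged 3 months. RNA was taken from laser-microdissected dorsal or ventral subiculum and sequenced as stranded poly(A) libraries. The 4 groups of 5 libraries were dorsal control, dorsal preconditioned, ventral control and ventral preconditioned. Preconditioned animals were sampled 24 hours after acute seizures evoked by stimulating the perforant pathway, the tract that carries entorhinal input into the hippocampus. The sources used here do not say what the controls underwent, or whether dorsal and ventral libraries of one number came from one animal. Where replicates were not separate animals, the p-values below measure only the spread between these libraries.

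Bdnf encodes brain-derived neurotrophic factor, which is made as a precursor and signals through the receptor TrkB to support neuronal survival and synaptic plasticity. The gene has several alternative promoters, each of which joins its own leader exon to a common coding exon. Vgf encodes a polypeptide stored in dense-core vesicles and cut there into smaller secreted peptides, and it is induced by nerve growth factor and by BDNF. Transcription of both genes in active neurons is known to involve CREB, which binds the cAMP response element TGACGTCA or its shorter core TGACG. In the hippocampus both are known to be induced by seizures.

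RefSeq listed 1 promoter window for Vgf and 6 for Bdnf on the GRCr8 build, and no other RefSeq gene overlapped either gene there. The windows were searched over the 250 bases before each start, on both strands, for TGACGTCA, its core TGACG, which lies inside it, the E-box CACGTG and the AP-1 motif TGANTCA. The Vgf window and the only Bdnf window with a TGACG core are shown because they carry the cAMP response letters, which stand in capitals with the E-box. The Vgf window lies at chr12:25277021-25277270 on the minus strand, and the Bdnf window, number 4 by position, at chr3:116637608-116637857 on the plus strand. Both are written 5′ to 3′ in the direction of transcription and end 1 base before the start.
Vgf: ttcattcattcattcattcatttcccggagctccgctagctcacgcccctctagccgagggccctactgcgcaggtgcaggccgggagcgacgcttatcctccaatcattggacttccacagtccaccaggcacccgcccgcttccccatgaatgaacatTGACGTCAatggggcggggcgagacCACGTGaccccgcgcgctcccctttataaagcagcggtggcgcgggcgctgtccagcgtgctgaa
Bdnf, start 4: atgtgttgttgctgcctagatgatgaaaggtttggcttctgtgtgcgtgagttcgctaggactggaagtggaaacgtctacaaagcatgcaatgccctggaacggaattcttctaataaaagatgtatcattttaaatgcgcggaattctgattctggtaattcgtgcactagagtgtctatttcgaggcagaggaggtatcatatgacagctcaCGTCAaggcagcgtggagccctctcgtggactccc
In Vgf the full element TGACGTCA began 90 bases before the start and the E-box CACGTG 65 bases before it. In Bdnf window 4 the core, read as CGTCA on the printed strand, began 35 bases before the start. Of 33469 rat windows of this length, 1.59% held TGACGTCA, 18.2% held TGACG, 5.59% held CACGTG and 6.34% held TGANTCA. Among the other Bdnf windows the third held TGANTCA, 152 bases before its start, and the remaining ones held none of the 4 motifs. These matches describe letters, and the counts, which are summed over a whole gene, do not show which Bdnf start was used.

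Library totals ranged from 3087146 to 20463678 counts. Levels are given as normalised counts, abbreviated CPM, which are counts relative to the library total after TMM scaling, a correction for differences in library composition. A total of 3 counts corresponded to between 0.144 and 0.928 CPM over the libraries, and the members were far above it, with at least 55 counts for Bdnf and 54 for Vgf in every library. Such floors and counts cover counting error only. In a principal component analysis, dorsal control 4, ventral control 2 and dorsal preconditioned 2 each stood apart from their group on at least 1 component. Where a comparison held more than 1 of these 3, the fitted log2 fold changes were also computed without them. The ventral treatment comparison and that of the regions after preconditioning held 1 each and had no such joint fit. Ventral preconditioned 2 and 5 also lay apart on the second component, at 0.45 and 2.13 against -36.3 to -23.0 in the rest of their group. They are not among the libraries said below to stand apart. The tissue labels could not be checked against marker genes, since the identifiers have no names here. In these bulk samples a change in the number of cells that express a gene and a change in RNA per cell cannot be told apart.

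Vgf was the member with the larger change. In ventral controls it measured 16.7, 10.9, 20.9, 22.1 and 15.01 CPM in replicates 1 to 5. In ventral preconditioned libraries it measured 83.9, 50.3, 112, 71.4 and 27.5 CPM. The lowest treated library, replicate 5, lay above the highest control, so the groups did not overlap. The means were 17.1 ± 4.55 and 69.0 ± 32.3 CPM (SD, n = 5 each), which gives a log2 fold change of 2.0 (SE 0.31, 95% interval 1.34 to 2.66), or 4.0-fold, with an adjusted p of 0.00141 in edgeR's quasi-likelihood test. The two-sided exact permutation p of the difference in mean log2 CPM was 0.00794, the smallest that 252 splits can give, and 0.0159 after Benjamini-Hochberg adjustment over 8 such tests. Vgf was higher after preconditioning with each of the 10 libraries left out in turn, with log2 fold changes from 1.76 to 2.20 and adjusted p from 0.000132 to 0.00791.

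Bdnf rose by less in the same libraries. It measured 17.0, 16.5, 14.7, 18.3 and 14.6 CPM in ventral controls 1 to 5. After preconditioning it measured 20.4, 29.2, 19.4, 22.2 and 24.0 CPM in replicates 1 to 5. Again all 5 treated libraries exceeded all 5 controls, though the highest control and the lowest treated library were close. The means were 16.2 ± 1.57 and 23.0 ± 3.89 CPM (SD, n = 5 each), which gives a log2 fold change of 0.51 (SE 0.14, 95% interval 0.22 to 0.81), or 1.43-fold, with an adjusted p of 0.0475 in edgeR's quasi-likelihood test and an exact permutation p of 0.00794 (0.0159 adjusted over 8 tests). This call was marginal. It was lost in 10 of 18 alternative fits. Among these were 8 of the 10 that left out a single library, with adjusted p between 0.0559 and 0.129, while it held without ventral control 2 and without ventral preconditioned 3. The direction was the same in all 18.

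Both members were thus called higher in the ventral comparison, where 5.06% of the 13291 genes tested were called in either direction and 2.93% were called higher. The ranges of the groups did not overlap, with the treated group higher, for 3.82% of genes. The estimate for Vgf was larger than that of 99.7% of the genes tested, and 35 of the 390 genes called higher had a larger one. Bdnf stood near the edge of the called set. Of the 390 genes called higher, 319 had a larger fold change, and of the 672 called genes 19 had a larger p-value.

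**Figure D1:**
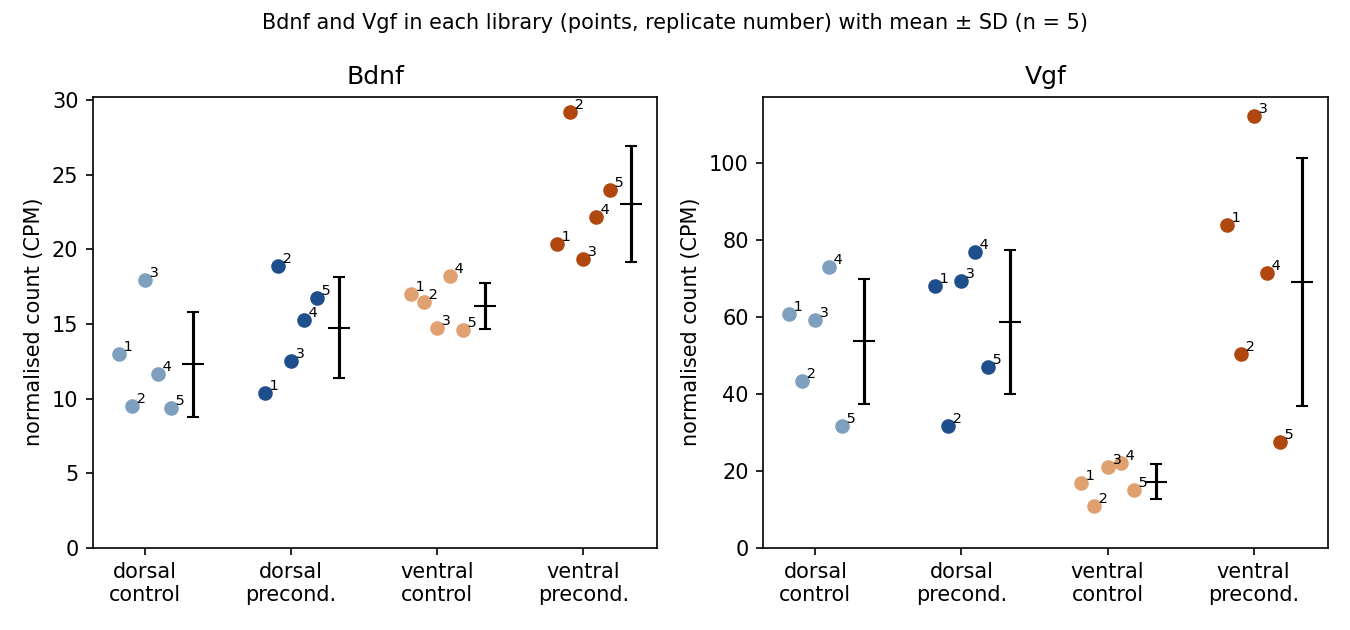
Normalised counts (CPM, linear axis from 0) of Bdnf, left, and Vgf, right, in the 4 groups. Each point is 1 library with its replicate number, and the bar beside each group is the mean ± SD (n = 5). Vgf is low in the 5 ventral controls, between 10.9 and 22.1 CPM, and Bdnf is highest in the 5 ventral preconditioned libraries, between 19.4 and 29.2 CPM.

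In the dorsal subiculum neither member passed the test. Vgf measured 60.8, 43.4, 59.2, 73.0 and 31.6 CPM in dorsal controls 1 to 5, and 68.1, 31.6, 69.3, 76.9 and 47.0 CPM in the preconditioned libraries. The groups overlapped over most of their ranges. The means were 53.6 ± 16.2 and 58.6 ± 18.8 CPM (SD, n = 5 each), with a log2 fold change of 0.12 (SE 0.25, 95% interval -0.41 to 0.66, adjusted p = 0.939, edgeR). Without the 2 dorsal libraries that stood apart it was 0.42 (adjusted p = 0.52, edgeR). The sign of this small estimate turned without dorsal control 5, to -0.0093.

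Bdnf measured 13.0, 9.49, 17.9, 11.7 and 9.38 CPM in dorsal controls, and 10.4, 18.9, 12.5, 15.3 and 16.7 CPM after preconditioning. Dorsal control 3 exceeded 4 of the 5 treated libraries. The means were 12.3 ± 3.50 and 14.8 ± 3.37 CPM (SD, n = 5 each), with a log2 fold change of 0.25 (SE 0.20, 95% interval -0.18 to 0.69, adjusted p = 0.819, edgeR). The estimate was 0.43 without dorsal control 3 (adjusted p = 0.453), 0.15 without dorsal preconditioned 2 and 0.13 without the 2 dorsal libraries that stood apart. The exact permutation p-values were 0.262 for Bdnf and 0.690 for Vgf. Only 0.271% of the 13647 genes tested were called in this comparison. The intervals included no change for both genes, and their upper bounds with all libraries were 1.61-fold for Bdnf and 1.58-fold for Vgf.

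**Figure D2:**
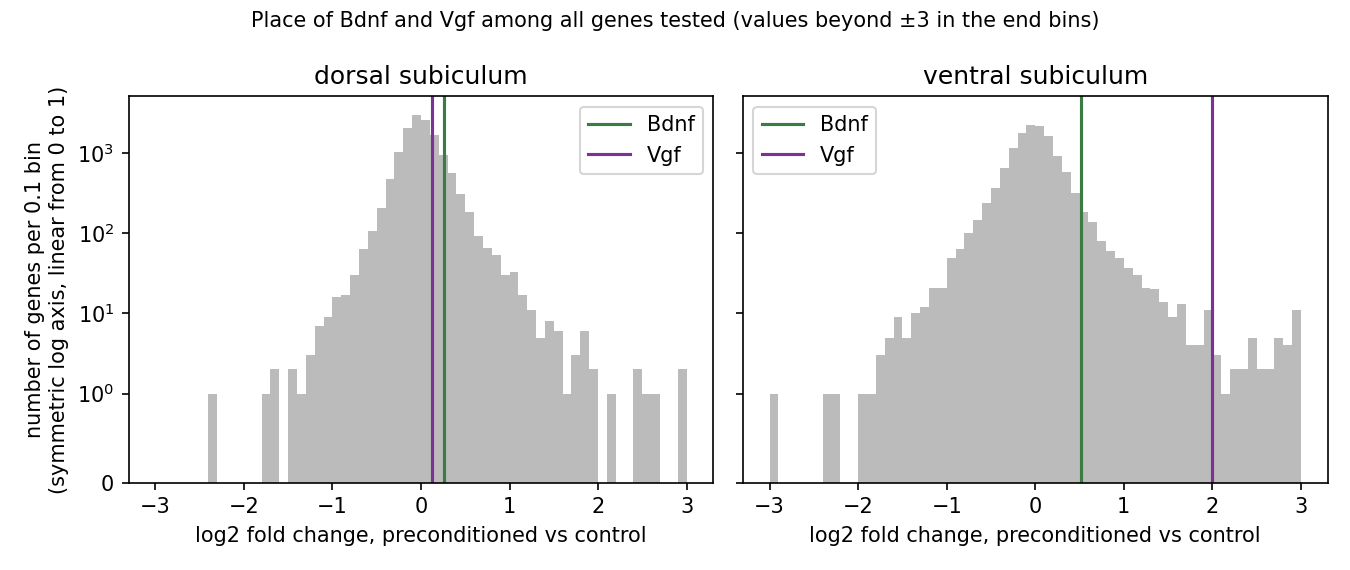
Distribution of the log2 fold change between preconditioned and control libraries over all genes tested in the dorsal, left, and ventral, right, subiculum. Bars are numbers of genes per bin of 0.1 on a symmetric log axis, and vertical lines mark Bdnf and Vgf. In the ventral region Vgf, at 2.0, lies in the upper tail and Bdnf, at 0.51, on its shoulder, while in the dorsal region both lie inside the bulk, at 0.25 and 0.12.

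The regions were then compared in controls. Vgf was lower in ventral than in dorsal controls, with every ventral control (at most 22.1 CPM) below every dorsal control (at least 31.6 CPM). The log2 fold change was -1.65 (SE 0.23, 95% interval -2.13 to -1.16), or 3.13-fold lower in the ventral region, with an adjusted p of 0.000113 in edgeR's test and an exact permutation p of 0.00794. In this comparison 25.7% of 13509 genes were called in either direction and 14.5% were called lower in the ventral region, so a regional difference as such was common. The ranges did not overlap, with the ventral group lower, for 10.3% of genes. The Vgf estimate was more negative than that of all but 1.59% of the genes tested, and its p-value in edgeR's test ranked 477 among them. Without dorsal control 4 and ventral control 2 the log2 fold change was -1.39 (adjusted p = 0.000352, edgeR). With the replicate number as a block, a pairing that the labels do not state, it was -1.62 (adjusted p = 4.21e-07, edgeR).

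Bdnf had the higher mean in ventral controls, with means of 12.3 ± 3.50 CPM for dorsal and 16.2 ± 1.57 CPM for ventral libraries (SD, n = 5 each) and overlapping groups. The log2 fold change was 0.39 (SE 0.18, 95% interval 0.0026 to 0.78). It did not pass the threshold, with an unadjusted p of 0.0487 and an adjusted p of 0.132 in edgeR's test. The exact permutation p was 0.0476, and 0.0762 adjusted over 8 tests. Dorsal control 3, the highest of its group at 17.9 CPM, bore on this. Without it the log2 fold change was 0.57 and the adjusted p 0.0195 (edgeR). Without dorsal control 2 or 5 the log2 fold change fell to 0.32 or 0.31 (adjusted p = 0.272 and 0.252, edgeR). With limma-voom and sample quality weights the adjusted p was 0.0318, and with the replicate number as a block in edgeR it was 0.0547. The difference stayed uncalled in 17 of 19 alternatives.

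After preconditioning the regional contrast of Vgf was no longer detected. The ventral and dorsal groups overlapped, at 27.5 to 112 and 31.6 to 76.9 CPM, and the log2 fold change was 0.23 (SE 0.31, 95% interval -0.43 to 0.88, adjusted p = 0.644, edgeR). The interval allowed a level between 0.740 and 1.85 times the dorsal one. The sign of the estimate rested on ventral preconditioned 3, without which it was -0.018.

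Bdnf was higher in the ventral than in the dorsal preconditioned libraries, with all 5 ventral libraries (at least 19.4 CPM) above all 5 dorsal ones (at most 18.9 CPM). The log2 fold change was 0.64 (SE 0.16, 95% interval 0.29 to 0.99), or 1.56-fold, with an adjusted p of 0.0101 in edgeR's test and an exact permutation p of 0.00794. It stayed called in all 18 alternative fits, with adjusted p from 0.000673 to 0.0285. Here 26.7% of 13640 genes were called in either direction and 12.0% were called higher in the ventral region, and the ranges did not overlap, with the ventral group higher, for 8.75%, so a difference of this kind was also common.

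**Figure D3:**
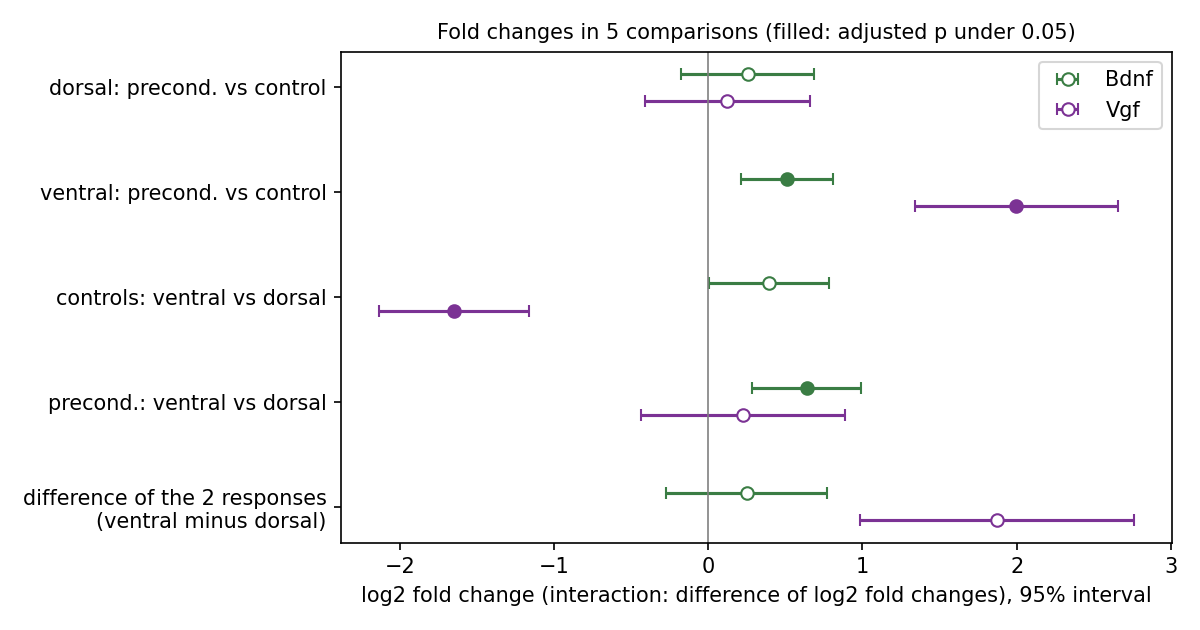
Log2 fold changes of Bdnf and Vgf with 95% intervals in the 4 pairwise comparisons and for the difference between the responses. Filled points passed an adjusted p of 0.05 in edgeR's quasi-likelihood test and open points did not. Vgf has the lowest point, at -1.65 between the control regions, and the highest, at 2.0 for ventral preconditioning.

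In order of mean level, Vgf ran from ventral controls (17.1 CPM) to dorsal controls (53.6 CPM), dorsal preconditioned (58.6 CPM) and ventral preconditioned libraries (69.0 CPM). Of the neighbours in that order, only ventral and dorsal controls differed beyond their spread. Bdnf ran from dorsal controls (12.3 CPM) to dorsal preconditioned (14.8 CPM), ventral control (16.2 CPM) and ventral preconditioned libraries (23.0 CPM). Its lower 3 groups overlapped in range, and the ventral preconditioned group lay above all of them. The levels of Bdnf and Vgf were not set against each other, because CPM is not scaled to transcript length. The 4 pairwise comparisons share libraries, so their results for one gene are not independent.

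Whether the ventral response differed from the dorsal one was tested with an interaction term fitted on the 20 libraries. For Vgf the ventral log2 response exceeded the dorsal one by 1.87 (SE 0.43, 95% interval 0.98 to 2.76). Its unadjusted p was 0.00024, the 32nd smallest of 14087 genes, and its adjusted p was 0.104 in edgeR's test, which missed the threshold that 0.0781% of genes passed. The call depended on the fit. It was made in 5 of 29 alternatives, among them DESeq2 (adjusted p = 0.00509), limma-voom with sample quality weights (0.0328) and edgeR without ventral preconditioned 5 (0.0206). The 5 include an exact permutation test adjusted over only the 2 members. In the other 24 alternatives it was not made, with adjusted p of up to 0.313. The difference was positive in all 29. Without the 3 libraries that stood apart, a fit that kept ventral preconditioned 2 and 5, it was 1.45 (adjusted p = 0.313, edgeR). For Bdnf the difference was 0.25 (SE 0.25, 95% interval -0.27 to 0.77, adjusted p = 0.912, edgeR), and it was called in none of 29 alternatives. Its size rested on few libraries, at 0.072 without dorsal control 3 and 0.40 without the 3 libraries that stood apart.

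Taking libraries by replicate number, the ventral minus dorsal difference of Vgf in log2 CPM was -1.85, -1.98, -1.49, -1.72 and -1.07 in controls 1 to 5. In preconditioned libraries it was 0.30, 0.67, 0.69, -0.11 and -0.77. Every control number had the lower Vgf level in the ventral region, and the treated numbers were mixed in sign and all above the controls. The share of all genes whose differences separate in this way was not computed, so how common such a separation is remains unknown. For Bdnf the difference was 0.39, 0.79, -0.28, 0.64 and 0.63 in controls, and 0.97, 0.63, 0.62, 0.53 and 0.51 after preconditioning. Bdnf was higher in the ventral library for 4 of 5 control numbers and for 5 of 5 treated ones, and 4 of the 5 treated values lay within the range of the controls.

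**Figure D4:**
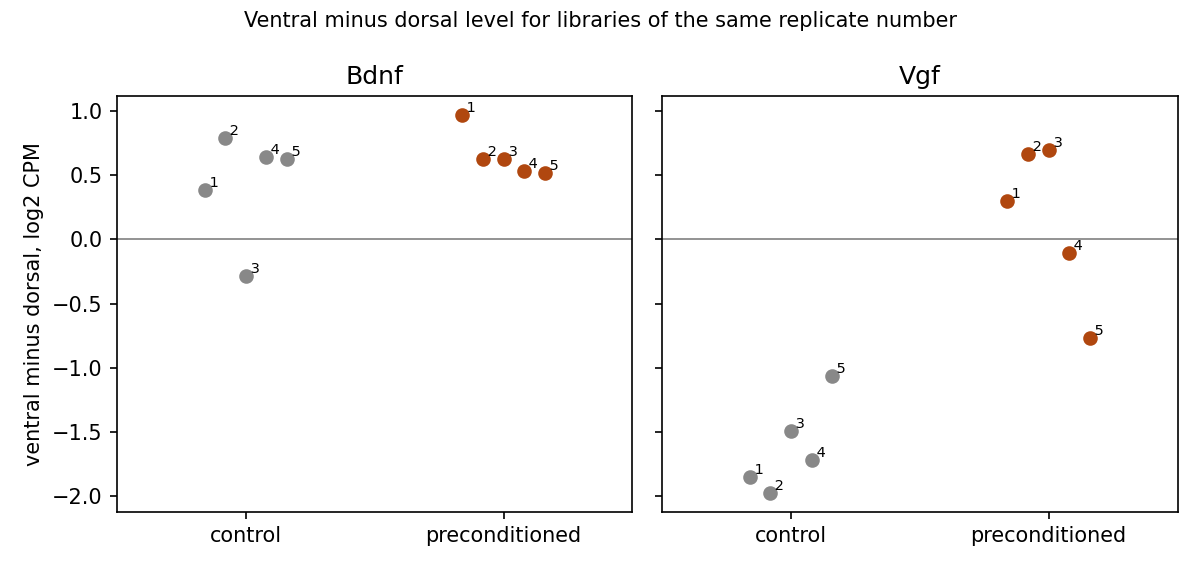
Ventral minus dorsal level, in log2 CPM, for libraries with the same replicate number, in controls (grey) and after preconditioning (orange). The Vgf points of the controls lie between -1.98 and -1.07 and those of the treated libraries between -0.77 and 0.69, while the Bdnf points of the 2 conditions overlap.

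The members also differed in how evenly the libraries of a group behaved. In ventral preconditioned libraries Vgf had a coefficient of variation of 46.8%, where the median over 2059 genes of similar mean level (within 0.5 log2 units) was 12.7%. Its highest library was 4.09 times its lowest. Vgf was also above the median of similarly expressed genes in the other groups, at 30.2% against 14.7% in dorsal controls, 32.0% against 10.6% in dorsal preconditioned and 26.5% against 16.3% in ventral controls. Bdnf varied by 9.66% in ventral controls, where the median of similarly expressed genes was 16.6%, and by 28.5% in dorsal controls against 20.2%. In dorsal preconditioned libraries Bdnf varied by 22.9% against 14.8%, and in ventral preconditioned ones by 16.9% against 14.6%.

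The gene whose log2 CPM followed Vgf most closely over the 20 libraries was ENSRNOG00000050404, with a likeness (Pearson's r) of 0.95 among 14086 genes compared. It measured 14.8 ± 2.65 CPM in ventral controls, 37.2 ± 17.2 in ventral preconditioned, 26.6 ± 6.29 in dorsal control and 30.7 ± 9.39 in dorsal preconditioned libraries (SD, n = 5 each). The most opposite pattern was that of ENSRNOG00000014973, with a likeness of -0.91, which was highest in ventral controls at 7.77 ± 1.84 CPM and between 3.14 and 3.61 CPM on average elsewhere. For Bdnf the closest pattern was that of ENSRNOG00000031100, with a likeness of 0.84. Its group means were low, between 1.95 and 5.56 CPM, beside a floor of 3 counts at up to 0.928 CPM. The most opposite pattern was that of ENSRNOG00000023280, with -0.90. This gene measured 83.3 ± 11.5 CPM in dorsal controls and 67.4 ± 2.75 in dorsal preconditioned libraries. It measured 60.0 ± 2.78 CPM in ventral control and 50.8 ± 3.81 in ventral preconditioned libraries, so its order was the reverse of that of Bdnf. Bdnf and Vgf were not alike on this measure, at -0.01. These values describe 20 libraries that share their groups, and no test was made of them. The table does not pair these identifiers with names.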

How the data were processed

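The authors deposited 1 table of raw counts per gene for 20 libraries. The submitters' processing notes name STAR, DESeq2 and the build Rnor_5.0. The annotation and the use of strand in counting are not given in the sources used here. Columns of treated libraries begin with e where the titles have p, and were matched by number and region. RefSeq promoter sequences are on GRCr8, so they were used by symbol, with no transfer of coordinates.

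The gene-wise test was that of edgeR 4.0.16, run in R 4.3.3 (filterByExpr, TMM, glmQLFit with robust=TRUE, glmQLFTest), each comparison on its own libraries and the interaction on all 20, with Benjamini-Hochberg adjustment over all genes tested and a threshold of 0.05. The standard error is the log2 fold change divided by the square root of F. Levels used TMM factors over all libraries, and log2 CPM a prior count of 2. The test was checked on simulated counts. Exact permutation tests were two-sided.

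The members and lists were chosen with earlier results of these data known. Named besides the members were, for each of them, the identifier with the highest and the one with the lowest Pearson's r. Planned lists of receptors, processing enzymes, other secreted factors and cell type markers were given by symbol and were not used, as 0 identifiers matched. Alternatives were DESeq2 1.42.0, its size factors in edgeR, 2 other filters, a replicate block, limma-voom (limma 3.58.1), robust=FALSE, a joint fit of all libraries, and leaving out single libraries.

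The replicate numbers paired dorsal and ventral controls, whose deviations from their group means correlated across genes in 5 of 5 pairs (r from 0.200 to 0.393, all over 0.1). They did so in 4 of 5 preconditioned pairs, in 3 of 5 ventral and in 0 of 5 dorsal pairs of control and treated libraries. Among preconditioned pairs the lowest r was 0.038, while libraries of unlike number reached 0.288. The main fits did not take the numbers as pairs. The replicate block, the differences by replicate number and their exact permutation test did so, for preconditioned libraries too. Libraries of one group differed by more than sampling noise, with a chi-square per degree of freedom of at least 3.37. Figures were drawn with matplotlib 3.10.9.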

Additional observations from a re-analysis of the deposited data

Results flagged for a closer look

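The ventral minus dorsal difference of Vgf differed between the conditions when libraries were taken by replicate number. It averaged -1.62 ± 0.36 log2 units in controls and 0.16 ± 0.61 after preconditioning (SD, n = 5 numbers each), a change of 1.78. The two-sided exact permutation p was 0.00794, the smallest that 252 splits can give, and 0.0159 adjusted over the 2 genes tested. This test was chosen after the data had been seen, and it takes the numbers as pairs, which the labels do not state. The same test for Bdnf gave a change of 0.22 (exact permutation p = 0.397). In 8 groups of 5 values (2 genes in 4 groups) no library stood far enough from its group to pass Dixon's ratio of 0.71.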

How the results depend on the processing

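Of the 10 results (2 genes in 5 comparisons), 5 kept their sign and their side of the threshold in every alternative. The ventral rise of Bdnf lost its call with every gene of at least 1 count tested (log2 fold change 0.52, adjusted p = 0.0528) and with all 20 libraries in one fit (0.51, adjusted p = 0.107), and leaving out 1 library gave 0.40 to 0.57. The regional difference of Bdnf in controls gained a call under limma-voom with sample quality weights (0.46), with 0.31 to 0.57 on leaving out 1 library. The Vgf interaction gained one under DESeq2 (1.88), limma-voom (1.67) and the replicate block (1.78, adjusted p = 0.0043 in edgeR). The exact permutation of the differences by number also fell under 0.05 (1.78, adjusted p = 0.0159). That p-value was adjusted over only the 2 genes, and not over all genes tested as in the other fits. On leaving out 1 library the Vgf interaction was 1.63 to 2.08. Without the 3 libraries that stand apart together, an alternative added after seeing the data, it was 1.45 (adjusted p = 0.313). Leaving out 1 library gave 0.15 to 0.43 for Bdnf in the dorsal comparison, 0.072 to 0.35 for its interaction, -0.0093 to 0.28 for Vgf in the dorsal comparison and -0.018 to 0.43 for Vgf between the treated regions. The cause of these changes was not tested. The block changed no other call of the members, and for Bdnf between control regions its adjusted p was 0.0547. The number of genes called overall moved by more than 1.5 times in some settings. In the dorsal comparison it went from 37 to 169 (DESeq2), 172 (limma-voom), 97 (all 20 libraries in one fit) or 105 (without the libraries that stand apart). In the ventral one it went from 672 to 1085 (DESeq2), 1508 (limma-voom) or 1261 (block). For the interaction it went from 11 to 55 (DESeq2), 100 (limma-voom), 62 (block) or 28 (without the libraries that stand apart). Leaving out 1 library gave as few as 15 (without dorsal preconditioned 3), 432 (without ventral control 5) and 6 (for the interaction without dorsal control 2 and without 4 others), and as many as 1029 in the ventral comparison (without ventral control 2) and 20 for the interaction (without ventral preconditioned 5). The likeness of the 4 named identifiers to Bdnf or Vgf kept its sign with Spearman's rho and with deviations from the group means, while that between Bdnf and Vgf went from -0.01 to 0.066 with rho. ENSRNOG00000031100, closest to Bdnf by Pearson's r, ranked 28 by rho and 12 by deviations, and ENSRNOG00000050404, closest to Vgf, ranked 1 and 7.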

Other observations

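Within the ventral preconditioned group the members ranked the libraries differently. Replicates 2 and 5 had the highest Bdnf levels, 29.2 and 24.0 CPM, and the lowest Vgf levels, 50.3 and 27.5 CPM. Replicate 3 had the lowest Bdnf level, 19.4 CPM, and the highest Vgf level, 112 CPM. On the second principal component over 14087 genes, which held 9.52% of the variance, the same replicates 2 and 5 lay at 0.45 and 2.13, nearest to the ventral controls, which lay between 7.47 and 43.2. The other ventral preconditioned libraries lay between -36.3 and -23.0. Replicates 2 and 5 also had the largest library totals of their group, 16203907 and 19291639 counts, against 7878493 to 9290539 in the others. Whether library size bears on this order was not tested. The ventral control with the highest value on that component, replicate 2, had the lowest Vgf level of all 20 libraries, 10.9 CPM. No test was made of this order, and the components include the members' own values.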
